A study of Mus musculus with 2 samples.

Results

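The small leucine-rich proteoglycans are secreted matrix proteins built around a solenoid of leucine-rich repeats. The 10 genes described here were taken by symbol, with no threshold on a measured value: Dcn (decorin), Bgn (biglycan), Aspn (asporin), Lum (lumican), Fmod (fibromodulin), Prelp, Omd (osteomodulin), Kera (keratocan), Ogn (osteoglycin) and Podn (podocan). All 10 were found among the 43346 annotated genes of the tables. RNA from tissue labelled as subcutaneous fat pad of C57BL/6J mice was measured in 2 libraries, numbered biological replicates 1 and 2. The animals were littermates of mixed sex aged 8 weeks, with no treatment or engineered allele named. The series holds this single group, so the data give the level of each gene and how far the replicates lay apart. The labels give the libraries separate tissue samples under a common donor record, and the number of animals pooled in a sample was not given in the sources used here. Spread between the replicates may therefore differ from that between animals.

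In connective tissue these proteins coat collagen fibrils, set fibril diameter and spacing, and hold growth factors of the TGF-beta family. Decorin, biglycan and asporin form class I of the family. Decorin and biglycan carry chondroitin or dermatan sulfate chains on serine-glycine sites near the N terminus, whereas asporin has a stretch of aspartates there. Lumican, fibromodulin, Prelp, osteomodulin and keratocan form class II, several of which carry keratan sulfate on asparagines. Osteoglycin belongs to class III and podocan to a separate small class. In fat, fibroblasts and adipocyte progenitors are the usual source of decorin and lumican.

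The start of the coding sequence of class I members and fibromodulin is shown first, since these chain and sulfation sites lie there. Each line holds the first 240 coding bases of the member's leading transcript, read from GENCODE release M21 transcripts. Capitals mark in-frame serine-glycine codon pairs in Dcn and Bgn, the longest runs of aspartate codons in Aspn, and tyrosine codons in Fmod.
Dcn: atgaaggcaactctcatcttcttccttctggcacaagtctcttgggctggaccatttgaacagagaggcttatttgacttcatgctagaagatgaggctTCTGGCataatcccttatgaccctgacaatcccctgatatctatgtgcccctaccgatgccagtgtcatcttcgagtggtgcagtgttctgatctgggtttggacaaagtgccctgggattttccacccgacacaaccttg
Bgn: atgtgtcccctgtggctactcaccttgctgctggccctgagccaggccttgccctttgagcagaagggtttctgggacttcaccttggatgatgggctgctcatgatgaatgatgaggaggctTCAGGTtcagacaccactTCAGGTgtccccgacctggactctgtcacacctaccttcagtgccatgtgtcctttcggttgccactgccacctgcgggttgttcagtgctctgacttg
Aspn: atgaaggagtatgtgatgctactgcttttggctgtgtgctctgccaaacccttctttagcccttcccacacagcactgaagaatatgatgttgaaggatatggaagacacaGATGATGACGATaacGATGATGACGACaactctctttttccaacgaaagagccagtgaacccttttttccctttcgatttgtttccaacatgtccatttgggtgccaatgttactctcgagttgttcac
Fmod: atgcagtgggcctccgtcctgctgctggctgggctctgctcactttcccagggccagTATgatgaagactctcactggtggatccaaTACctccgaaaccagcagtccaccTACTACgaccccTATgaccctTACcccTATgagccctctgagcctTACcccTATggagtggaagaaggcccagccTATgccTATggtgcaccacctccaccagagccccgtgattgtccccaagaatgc

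Dcn had 1 serine-glycine pair in its first 300 coding bases, at codon 34, and Bgn had 2, the first at codon 42. Lum had 1 there, at codon 17, and the other 7 members had none. A pair of this kind occurred in 42.3% of 20946 protein-coding genes over the same window, so its presence alone does not set a gene apart. Aspn had 2 runs of 4 aspartate codons, from codons 38 and 43, and no other member had a run of that length. A run of at least 4 occurred in 0.349% of those genes over the window. Fmod had 13 tyrosine codons in its first 300 coding bases, Omd 9 and Lum 8, and at least 10 were present in 0.396% of genes. Sites of the sequence asparagine, any residue but proline, then serine or threonine, where keratan sulfate is attached in class II, numbered 6 in Omd, 5 in Fmod and 4 each in Lum, Prelp and Kera, but also 5 in Podn and 4 in Dcn. The coding sequences ran from 298 codons in Ogn to 611 in Podn.

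Facts of the libraries come before the member values, because the 2 replicates differed in the levels of cell type markers. Estimated counts totalled 54752739 in replicate 1 and 58687668 in replicate 2. All 10 white adipocyte markers were called higher in replicate 2, that is, with a whole 95% counting interval beyond 2-fold, their summed TPM (a level per transcript length, relative to all transcripts of the library) being 8330 in replicate 1 and 28513 in replicate 2, led by Fabp4, Lpl and Cidec. All 6 endothelial markers (810.6 and 1904 TPM), led by Egfl7, Gpihbp1 and Cdh5, were also called higher in replicate 2 with the scaling described below. All 8 smooth muscle markers (5463 and 662 TPM), led by Acta2, Tagln and Cnn1, and all 10 of reproductive tract and glandular epithelium (1394 and 30.0 TPM), led by Wfdc2, Krt19 and Hoxa10, were called higher in replicate 1. Of 5 mesothelial markers (284 and 62.0 TPM), 3 were called higher in replicate 1. With that scaling, 12.6% of all genes tested were called higher in replicate 1 and 10.6% in replicate 2. By total gene count, 9 adipocyte markers and 1 endothelial marker were called higher in replicate 2, and all 5 mesothelial markers in replicate 1. The shares of all genes were then 4.4% in replicate 2 and 22.3% in replicate 1. Fibroblast and progenitor markers had nearly equal sums, 1786 and 1777 TPM over 10 genes, with 2 called each way by TMM and 2 in replicate 1 alone by total gene count. Tendon and cartilage markers were low (17.8 and 2.63 TPM over 8 genes), led by Scx, Sox9 and Thbs4, with Tnmd at 0 counts in both libraries. Those 3 were the ones tested. All were called higher in replicate 1 by TMM and by total gene count, beside 12.6% and 22.3% of all genes. Bone markers were lower still (0.670 and 0.280 TPM over 5 genes, led by Sp7, with Bglap and Ibsp at 0). Of 3 cornea markers measured (5.10 and 6.49 TPM in sum), Slc4a11 had 413 and 771 counts and was called higher in replicate 2, Aldh3a1 had 41 and 4 counts and Krt12 had 24 and 0. The 4 Y-linked genes Ddx3y, Kdm5d, Eif2s3y and Uty had 6 and 4 counts in all, against a label of mixed sex. The part of these differences in the results below was not tested, and in bulk tissue fewer cells of a type and less RNA per cell cannot be told apart.

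Of the 10 members, 8 reached at least 1 TPM in both libraries, beside 34.1% and 30.2% of all annotated genes in replicates 1 and 2. Their TPM summed to 1766 in replicate 1 and 1506 in replicate 2, a mean of 1636 ± 184 (SD, n = 2). Dcn, Bgn and Lum together held 92.8% of that sum in replicate 1 and 69.9% in replicate 2. Prelp held 3.18% in replicate 1 and 25.2% in replicate 2.

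**Figure D1:**
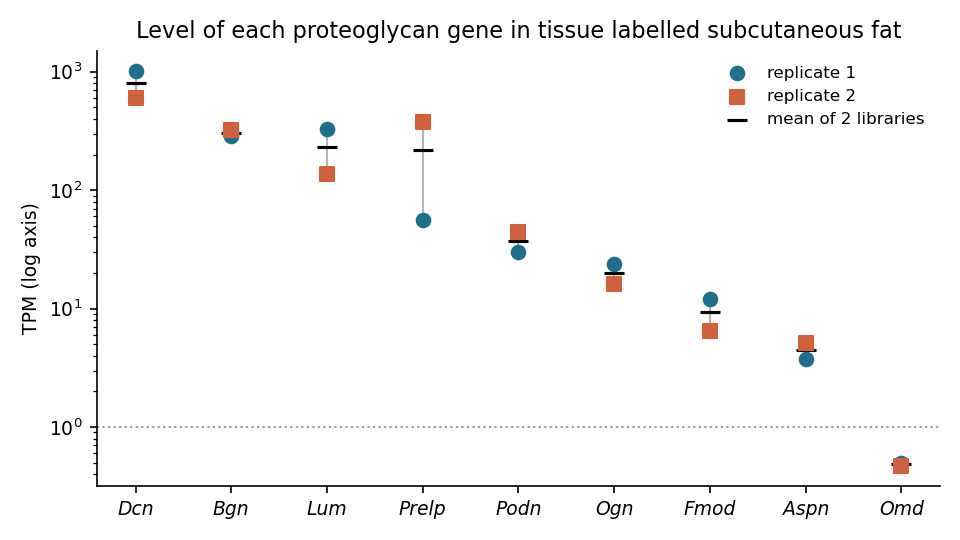
TPM on a log axis for 9 members in replicate 1 (circles) and replicate 2 (squares), with the mean of the 2 libraries as a bar and 1 TPM dotted. Dcn was highest in both libraries, Prelp had the widest gap (56.1 and 380.0 TPM), and Omd lay below 1 TPM; Kera, with 0 and 1 counts, is not drawn.

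In class I, decorin was the leading member. Dcn (ENSMUSG00000019929.11, GRCm38 chromosome 10, 97479609 to 97518143, plus strand) was at 1024 TPM in replicate 1 and 597 in replicate 2, from 63876 and 43584 counts. It ranked 118th and 190th among annotated genes. Bgn (ENSMUSG00000031375.13, chromosome X, 73483602 to 73495933, plus strand) was at 287 and 319 TPM, from 21065 and 28558 counts. In TPM the replicates of Bgn lay closer together than those of Dcn, whereas with the TMM scaling used below the order turns (ratios of 1.81 and 0.909). Decorin exceeded biglycan in TPM 3.56-fold in replicate 1 and 1.87-fold in replicate 2. Aspn (ENSMUSG00000021388.9, chromosome 13, 49544443 to 49567565, plus strand), whose product competes with decorin for collagen, was at 3.74 and 5.14 TPM, from 300 and 483 counts. Asporin therefore stood far below its class I relatives in each library.

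Class II covered the widest span of levels. Lum (ENSMUSG00000036446.4, chromosome 10, 97565128 to 97572703, plus strand), a keratan sulfate carrier that regulates fibril assembly, was at 329 TPM in replicate 1 and 137 in replicate 2, from 23010 and 11247 counts. Prelp (ENSMUSG00000041577.5, chromosome 1, 133910304 to 133921414, minus strand), which links matrix to basement membrane through heparan sulfate, was at 56.1 and 380.0 TPM, from 7176 and 56970 counts. Lumican was thus the second member of the family in replicate 1 and Prelp the second in replicate 2, where Prelp passed both lumican and biglycan. Fmod (ENSMUSG00000041559.7, chromosome 1, 134037254 to 134048277, plus strand), abundant in tendon, was at 12.1 and 6.52 TPM, from 1327 and 835 counts. Omd (ENSMUSG00000048368.8, chromosome 13, 49582462 to 49592822, plus strand), known from bone, was at 0.500 and 0.470 TPM, from 25 and 28 counts. Kera (ENSMUSG00000019932.7, chromosome 10, 97606879 to 97613692, plus strand), the corneal member, had 0 and 1 counts; at this depth 3 counts are 0.0460 and 0.0392 TPM, so its transcript was at the limit of detection.

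The remaining members were at middle levels. Ogn (ENSMUSG00000021390.5, chromosome 13, 49608046 to 49624501, plus strand), also called mimecan, was at 23.8 TPM in replicate 1 and 16.2 in replicate 2, from 2085 and 1660 counts. Podn (ENSMUSG00000028600.11, chromosome 4, 108014791 to 108096445, minus strand), a collagen-binding matrix protein, was at 30.1 and 44.5 TPM, from 2938 and 4665 counts.

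By mean TPM the order was Dcn, 810 ± 302 (SD, n = 2), Bgn, 303 ± 22.7, Lum, 233 ± 136, Prelp, 218 ± 229, Podn, 37.3 ± 10.2, Ogn, 20.0 ± 5.41, Fmod, 9.33 ± 3.97, Aspn, 4.44 ± 0.990, and Omd, 0.485 ± 0.0212. Bgn and Lum, and Lum and Prelp, overlapped between libraries and cannot be ordered from 2 libraries. The other neighbours did not overlap. The SD of Prelp exceeded its mean, so its level is not fixed by these data.

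For the comparison of the replicates, rounded estimated counts were scaled with TMM factors, which set the bulk of genes to equal levels, and the ratio of replicate 2 to replicate 1 was given an exact Clopper-Pearson 95% interval. This interval covers counting error only. A call required a scaled count of 100 or more, averaged over the libraries, and an interval wholly beyond 2-fold. With 1 library a side there is no replicate check and no p-value. Of the 8 members that passed the count minimum, 2 were called higher in replicate 2, beside 10.6% of the 13424 genes tested. None of the 8 was called higher in replicate 1, beside 12.6% of genes. The median log2 ratio over the 9 members averaging 10 or more scaled counts was 0.58, beside 0.01 over the 16984 genes above that minimum. That middle value is the ratio of Omd alone, from 25 and 28 counts. Over members averaging 100 or more scaled counts, which leaves Omd out, the median was 0.47.

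Prelp was 10.6-fold higher in replicate 2 (95% interval 10.3 to 10.8) and Podn 2.11-fold higher (2.02 to 2.22). These were the called members, and Podn only just passed the bound. Aspn was at a like ratio, 2.14 (1.85 to 2.49), but its interval reached below 2. Bgn was at 1.81 (1.77 to 1.84), under the bound. Ogn was at 1.06 (0.993 to 1.13), an interval that holds equality, and Omd at 1.49 (0.838 to 2.67), where the small counts allow either direction. On the side of replicate 1, Lum was 1.54-fold higher there (1.502 to 1.571), Fmod 1.19-fold (1.09 to 1.30) and Dcn 1.10-fold (1.09 to 1.11), all within the bound. The direction for Dcn, Lum and Fmod was toward replicate 1, and for Bgn, Prelp, Podn and Aspn toward replicate 2, under each scaling run.

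The call depends on the scaling for 2 members. Scaling by total gene count moved every log2 ratio by -0.51, and by the spike-in total by -0.46. Lum was then called 2.20-fold (2.15 to 2.25) and 2.11-fold (2.06 to 2.16) higher in replicate 1, beside 22.3% and 20.9% of genes called in that direction. Podn fell back within the bound, at 1.48 (1.41 to 1.55) and 1.54 (1.47 to 1.61), so that Prelp alone was called higher in replicate 2, beside 4.4% and 4.88% of genes. Ogn turned to the side of replicate 1 under both, at 0.742 (0.695 to 0.792) and 0.773 (0.724 to 0.824). Prelp was still 7.401-fold (7.22 to 7.59) and 7.70-fold (7.52 to 7.90) higher in replicate 2.

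**Figure D2:**
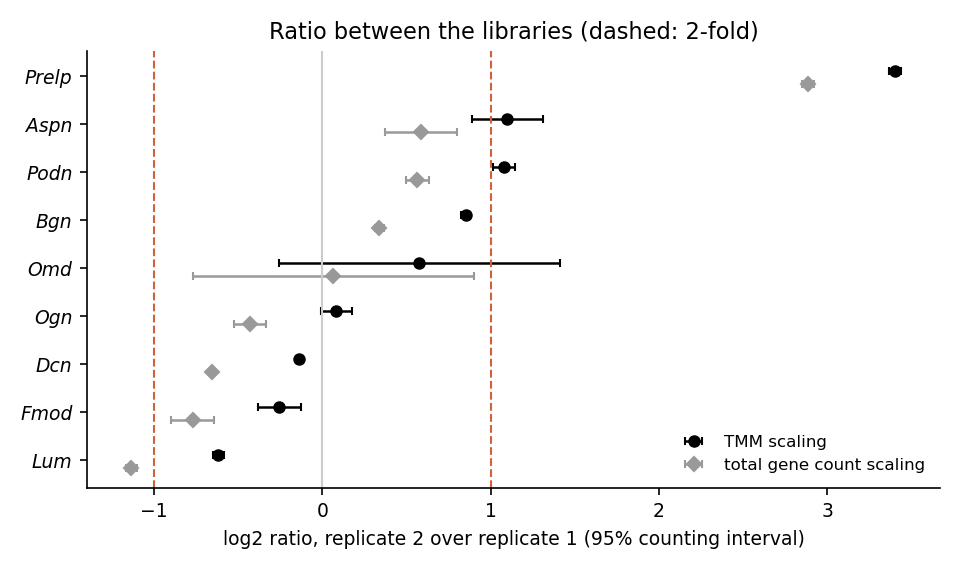
The log2 ratio of replicate 2 over replicate 1 for 9 members, with 95% counting intervals, under TMM scaling (black circles) and total gene count scaling (grey diamonds); dashed lines mark 2-fold. Prelp lies apart at 3.402, the intervals of Lum and Podn cross a dashed line when the scaling changes, and Aspn moves from a point just past it to one inside.

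Ratios within a library need no scaling between libraries. Prelp stood at 0.171 of the lumican level in replicate 1 and 2.77 times that level in replicate 2, a 16.2-fold change of this ratio. Against Dcn its ratio changed 11.6-fold, from 0.0548 to 0.637. By contrast Dcn was 3.11 and 4.35 times as high as Lum, a 1.40-fold change, and Lum was 27.1 and 21.04 times as high as Fmod. Decorin, lumican and fibromodulin therefore kept closer proportions to each other than Prelp kept to any of the 3.

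Most of the family lies in gene clusters. On GRCm38 chromosome 10, Dcn is followed by Lum after 47.0 kb, by Kera after 34.2 kb and by Epyc (epiphycan, a cartilage member) after 30.4 kb, with 0 other protein-coding genes between them. The first pair of genes held the high levels, whereas Kera had 0 and 1 counts and Epyc 2 and 7. On chromosome 13, Ecm2, Aspn, Omd and Ogn follow each other at 11.7, 14.9 and 15.2 kb, again with 0 protein-coding genes between. Ogn was 47.7 times as high as its neighbour Omd in replicate 1 and 34.5 times in replicate 2. Ecm2, which has a similar repeat region, was at 4.02 and 4.89 TPM, near Aspn. On chromosome 1, Optc (opticin, known from the eye) lies 2.30 kb from Prelp, and Fmod 116 kb beyond. These neighbours went apart: Optc was at 16.7 TPM in replicate 1 and 2.38 in replicate 2 and was called 4.29-fold higher in replicate 1 (95% interval 3.62 to 5.12), so the ratio of Prelp to Optc went from 3.37 to 160 (a 47.4-fold change), and that of Prelp to Fmod from 4.62 to 58.3.

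**Figure D3:**
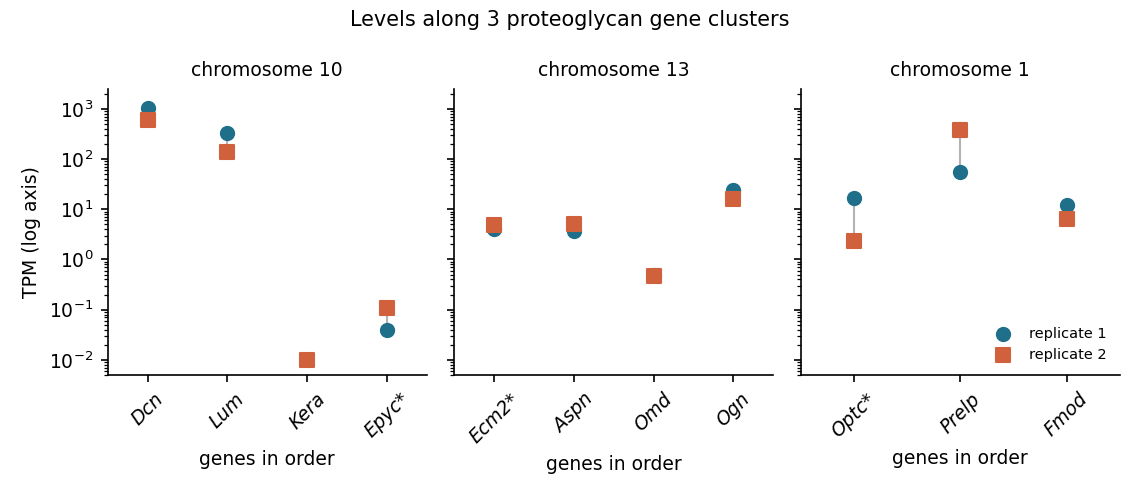
TPM on a log axis in replicate 1 (circles) and replicate 2 (squares) for genes of 3 clusters in their order along the chromosome, evenly spaced; an asterisk marks family genes outside the 10 described. Each cluster spans high and low genes, and on chromosome 1 Optc and Prelp differ in opposite directions; Kera in replicate 1, at 0, is not drawn.

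RefSeq windows from 250 bases before to 50 after a RefSeq start, on GRCm38.p6, were present for 8 members, in 9 windows, Podn having 2. These starts need not be those of the transcripts measured. Neither Podn window holds the start of its leading transcript Podn-201, which lies 64.5 kb from that of Podn-202. The Omd window ends at 49582511, before the annotated start of Omd-201 at 49582766. The Kera window begins at 97606955, past its gene start at 97606879. The names without a window were Dcn and Lum. The 4 windows below are shown because they belong to cluster neighbours whose levels or ratios lay apart: Prelp (chr1:133921352-133921651, minus strand) and Fmod (chr1:134037004-134037303, plus strand), Ogn (chr13:49607765-49608064, plus strand) and Omd (chr13:49582212-49582511, plus strand). Each is written 5′ to 3′ on the gene's strand, with capitals for matches on either strand of the TATA box letters (TATAAA), the CCAAT box, the core bound by C/EBP factors of adipocytes (TTGCNNAA) and the GC box (GGGCGG).
Prelp: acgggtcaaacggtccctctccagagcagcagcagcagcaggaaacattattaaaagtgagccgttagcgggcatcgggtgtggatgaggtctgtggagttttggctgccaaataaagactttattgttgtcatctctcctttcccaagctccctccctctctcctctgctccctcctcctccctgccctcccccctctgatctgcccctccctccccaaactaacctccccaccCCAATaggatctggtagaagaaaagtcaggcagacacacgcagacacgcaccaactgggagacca
Fmod: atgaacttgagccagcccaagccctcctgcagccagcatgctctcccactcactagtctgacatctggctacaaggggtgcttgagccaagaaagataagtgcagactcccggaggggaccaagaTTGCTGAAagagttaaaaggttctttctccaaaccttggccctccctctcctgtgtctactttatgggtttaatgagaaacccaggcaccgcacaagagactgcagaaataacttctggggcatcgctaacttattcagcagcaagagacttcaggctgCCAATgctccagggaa
Ogn: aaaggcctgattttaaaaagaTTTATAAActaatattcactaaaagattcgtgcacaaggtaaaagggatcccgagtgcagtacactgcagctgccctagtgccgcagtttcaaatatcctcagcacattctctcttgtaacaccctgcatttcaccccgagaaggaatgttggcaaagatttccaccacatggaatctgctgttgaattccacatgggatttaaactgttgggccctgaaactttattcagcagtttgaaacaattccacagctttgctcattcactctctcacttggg
Omd: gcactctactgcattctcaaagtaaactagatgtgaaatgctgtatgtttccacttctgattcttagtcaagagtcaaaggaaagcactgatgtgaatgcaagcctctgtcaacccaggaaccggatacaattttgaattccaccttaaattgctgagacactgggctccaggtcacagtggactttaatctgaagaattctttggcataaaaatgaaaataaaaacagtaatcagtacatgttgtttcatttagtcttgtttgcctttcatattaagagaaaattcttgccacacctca

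The Prelp window held 1 CCAAT match, 15 bases before the start, and Fmod held 1 CCAAT and 1 TTGCNNAA match. Ogn held 2 overlapping TATAAA matches, on opposite strands, at positions -229 and -227 from the start. Omd held none of the 4. Among the other windows, Bgn held 3 GGGCGG matches, 1 window of Podn held 2, Aspn held 2 TATAAA and 1 CCAAT, and Kera held 3 CCAAT. Over all 32851 windows, TATAAA was present in 13.6%, CCAAT in 37.4%, TTGCNNAA in 10.8% and GGGCGG in 35.7%. The member windows ranged from 31.0% GC in Aspn to 77.0% in Podn, beside a median of 52.7% over all windows. These matches describe letters only.

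Transcript use was given as the percent of a gene's TPM, divided by the authors' program among transcripts that share most of their sequence. Lum, Ogn, Omd and Kera had 1 annotated transcript each in these tables. Prelp-201 and Fmod-201 took 99.9% or more of their genes, and Aspn-201 took 96.7% and 98.1% in replicates 1 and 2. Dcn was split the same way in both libraries: Dcn-201 took 86.0% and 85.5%, and Dcn-202, which starts 2758 bases further along, took 13.9% and 14.5%. The division between the transcripts thus moved by less than 1 percentage point. Bgn-201, the full coding transcript, took 84.6% and 89.3% of Bgn. The short noncoding Bgn-208 at the 3′ end took 10.1% and 6.86% of TPM from only 362 and 318 counts, and by counts Bgn-201 held 96.4% on average.

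Podn was the most divided member, with 8 transcripts. Podn-201 took 51.1% and 45.5%, Podn-202 25.4% and 21.04%, and the short Podn-207, whose annotated start lies inside the gene, 9.53% and 21.7%. Podn-207 rested on 112 and 441 counts. Its share of 15.6 ± 8.60% (SD, n = 2) was the least steady of those named.

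**Figure D4:**
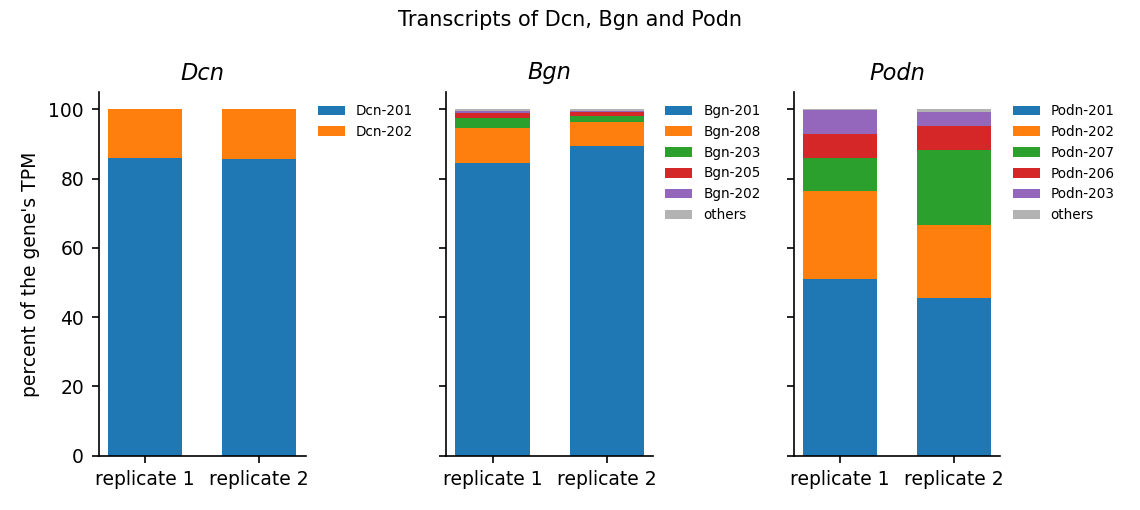
Percent of the gene's TPM taken by each transcript of Dcn, Bgn and Podn in each library, up to 5 leading transcripts in colours and others in grey. Dcn divides alike in both libraries, whereas Podn-207 goes from 9.53% to 21.7%.

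The rest of the family was lower than the leading members. Tsku (tsukushi, a secreted regulator of growth factor signals) was at 26.2 and 10.6 TPM, Chadl at 6.14 and 2.89 and Podnl1, the relative of podocan, at 1.64 and 1.72. Nyx was low (19 and 35 counts), and Epyc (2 and 7) and Chad (6 and 0) were near the limit of detection. Of the 8 such genes, 5 passed the count minimum and 1 of these, Optc, was called higher in replicate 1, beside 12.6% of all genes. Tsku was also called there by total gene count, at 2.24-fold (2.08 to 2.41), beside 22.3% of genes. By spike-in total it was called at 2.15-fold (2.002 to 2.32), beside 20.9%.

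The enzymes that build the sugar chains were broadly present. Of 22 genes of chondroitin and dermatan sulfate synthesis, 19 reached 1 TPM in both libraries. Chpf, a chondroitin polymerising factor, was at 152 and 61.2 TPM, the sulfotransferase Chst12 at 48.5 and 75.8, and B3gat3, which completes the linker to the core protein, at 73.9 and 50.2. Of 21 tested, 3 were called higher in replicate 2 (Chst12, Chst15 and Csgalnact1), beside 10.6% of all genes. Another 2 were called in replicate 1 (Chsy1 and Chst13), beside 12.6%, so both counts were near the share over all genes. The median log2 ratio was -0.05. Of 8 keratan sulfate genes tested, 4 were called higher in replicate 1 (B3gnt2, B3gnt7, Chst2 and Chst4), beside 12.6% of all genes, with a median of -0.92. The summed TPM of that list was higher in replicate 2 (143 and 178). The gene called in that direction was Chst1, beside 10.6% of all genes. Chst1, the galactose sulfotransferase of keratan sulfate, was at 52.0 and 135 TPM and 4.06-fold higher in replicate 2 (95% interval 3.93 to 4.20). B4galt1 was at 48.0 and 27.9 TPM and B4galt4 at 11.6 and 7.33, both within the bound, and Chst5 had 0 counts in both.

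Among collagens that these proteins bind, 4 of 11 tested were called higher in replicate 1 (Col1a1, Col1a2, Col6a3 and Col12a1), beside 12.6% of all genes. In replicate 2, 1 was called (Col5a3), beside 10.6% of all genes, and the median log2 ratio of the list was -0.74. The most abundant were Col6a2 (1254 and 488 TPM), Col6a1 (1159 and 504) and Col3a1 (612 and 229), each within the bound by TMM. By total gene count each was called higher in replicate 1, at 2.36-fold, 2.10-fold and 2.42-fold, beside 22.3% of all genes. Decorin stood at 1.94 times the level of Col1a1 in replicate 1 and 3.98 times in replicate 2.

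Of growth factors and receptors with known binding to the family, 3 of 16 tested were called, all higher in replicate 1 (Tgfb2, Igf1r and Itga2). This stands beside 12.6% of all genes, and the median was -0.11. The clearance receptor Lrp1 was at 261 and 173 TPM, the integrin gene Itgb1 at 84.9 and 61.5 and Egfr, a receptor that decorin binds, at 53.3 and 28.1. Of 10 proteases tested, 5 were called higher in replicate 1 and 1 in replicate 2 (median -0.18), beside 12.6% and 10.6% of all genes. Mmp2 was at 509 and 111 TPM and Mmp14 at 361 and 79.5, both called higher in replicate 1. Htra1, which can cleave decorin and biglycan, was at 169 and 177 TPM, within the bound. Counts for these lists depend on the scaling: by total gene count, 8 of 12 collagens and 6 of 16 growth factors or receptors were called higher in replicate 1, beside 22.3% of all genes. By that scaling 0 of 21 genes of chondroitin and dermatan sulfate synthesis were called higher in replicate 2, beside 4.4% of all genes.

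**Figure D5:**
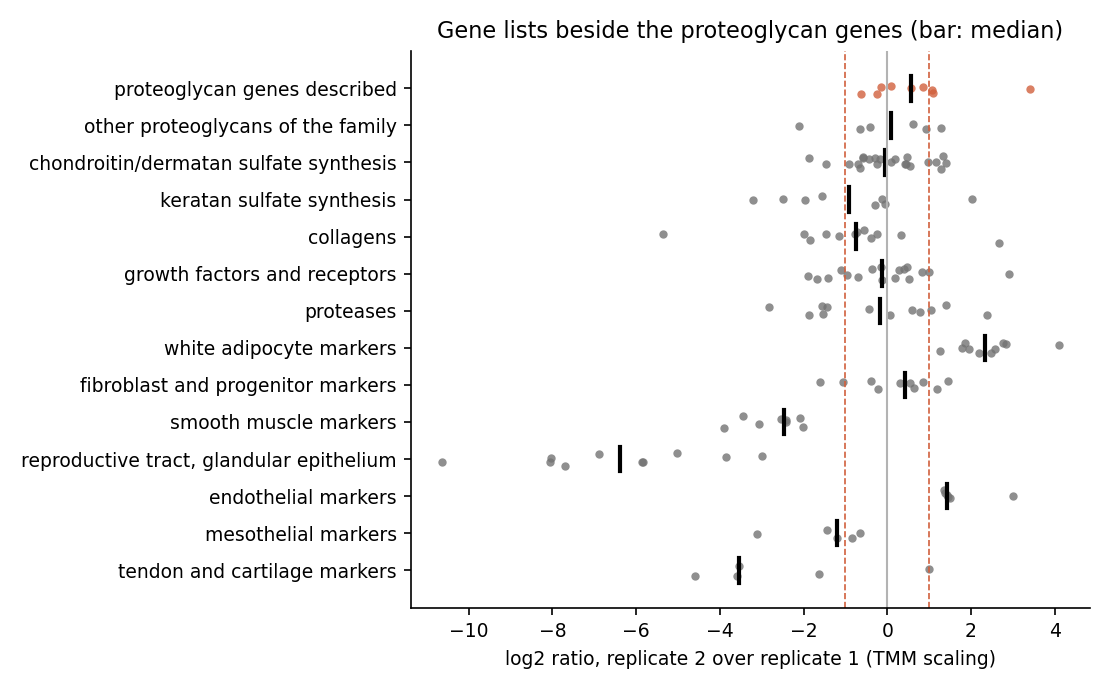
The log2 ratio of replicate 2 over replicate 1 with TMM scaling for each gene averaging 10 or more scaled counts, by list, with the list's median as a bar and dashed lines at 2-fold. The proteoglycan genes have a median of 0.58, the value of Omd (25 and 28 counts), with Prelp far to the right. Medians were 2.33 for the adipocyte markers, 0.425 for the fibroblast and progenitor markers and -2.47 for the smooth muscle markers.

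The genes nearest to the 3 leading members in level, by distance of log2(TPM + 0.1) over the 2 libraries among 12806 protein-coding genes, were Acly, Rps27rt and Pfn1 for Dcn, Slc27a1, Mt1 and Fxyd1 for Bgn, and Cxcl12, Tmem176b and Igfbp6 for Lum. The distances ranged from 0.02 for Slc27a1 to 0.25 for Pfn1. With 2 libraries this is a likeness of level only.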

How the data were processed

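RNA of 2 libraries of mouse subcutaneous fat was analysed. Per the labels, RNA over 200 nt was depleted of ribosomal RNA, selected for polyA, and read as stranded pairs of 76 nt. Per the notes deposited with the tables, reads were aligned to mm10 transcripts with GENCODE release M4; the counting program was not given in the sources used here. For their content, the deposited expected counts (estimated counts) divide reads that match several features, the deposited TPM values are per length over all features with spike-ins, and the deposited isoform values are a percent of the gene's TPM. The tables on build mm9 were not used here.

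Expected counts were rounded and scaled with TMM (edgeR 4.0.16, R 4.3.3) over annotated genes, with factors of 1.20 and 0.837; DESeq2 1.42.0 size factors, total gene count and spike-in total were alternatives. Interval calls were computed with scipy 1.17.1. Symbols matched 42462 of 43346 gene identifiers; positions come from GENCODE release M21 (GRCm38, equal to mm10). Of the fixed lists, the symbol Krt3 had no match, and Ctgf was matched as Ccn2 by synonym. The members were taken by symbol, and they and the lists were chosen with earlier results of these data known. Named genes were the members, other family genes, the 3 highest of most lists and the 3 nearest of each leading member. No gene of the fibroblast and progenitor or mesothelial lists was named, and the bone list was named in part. Genes called in a list, markers at 0 counts (Chst5, Tnmd, Bglap, Ibsp) and Adipoq and Col11a1 were named after their values were seen.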

Additional observations from a re-analysis of the deposited data

How the results depend on the processing

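The summed TPM of the members (1636) was 1506 to 1766 when each replicate was left out in turn, and the share of the first 3 members (81.4%) was 69.9 to 92.8%. The sum was 1910 when TPM was taken over annotated genes outside the mitochondrial genome. With total gene count scaling and with spike-in scaling, 1 member (Lum) was called higher in replicate 1 and 1 (Prelp) in replicate 2. The median log2 ratio of the members (0.58) was 0.062 by total gene count, 0.12 by spike-in total and 0.47 over members averaging 100 or more scaled counts. It was -0.074 and -0.029 as a difference of log2 TPM with pseudocounts of 0.1 and 1. TPM, like total gene count scaling, carries no TMM factor, and the rest of the change was not tested. Each of these medians except 0.47 is the value of Omd, which had 25 and 28 counts. Ogn was at -0.43 by total gene count, -0.37 by spike-in total, and -0.56 and -0.53 by log2 TPM with those pseudocounts, and Omd at -0.074 and -0.029 by log2 TPM. DESeq2 size factors, posterior mean counts and count minimums of 10 and 500 left the 2 called members as counted. Aspn, Omd and Kera are limited by depth. No paired analysis was possible because the series has 1 group.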

Other observations

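Adamts5 and Col5a3 were chosen after their values were seen. With TMM scaling they were the genes of their lists called higher in replicate 2, as Prelp and Podn were among the members. By total gene count and by spike-in total Podn was no longer called, whereas Adamts5, Col5a3 and Prelp were. Adamts5, a protease that cleaves large proteoglycans, was at 14.0 and 46.3 TPM in replicates 1 and 2 and 5.18-fold higher in replicate 2 (95% interval 5.00 to 5.36). Col5a3, a chain of type V collagen, was at 49.6 and 203 TPM and 6.42-fold higher (6.29 to 6.55). Gpihbp1 of capillaries, the highest ratio of the endothelial list, was 8.05-fold higher and Adipoq of adipocytes 5.60-fold higher in the same direction. The median was 2.705-fold for the endothelial list and 5.05-fold for the white adipocyte list. The part of either cell type in all these ratios was not tested. On the other side, Col11a1 had 219 counts against 4, and the tendon factor Scx 287 against 18. With TMM scaling Col11a1 averaged 98.2 scaled counts, under the minimum for a call, whereas Scx was called higher in replicate 1.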
